A study of Mus musculus with 3 samples.

Results

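IgG-switched B cells are B cells whose antibody heavy chain carries a gamma constant region in place of the mu and delta regions of the naive cell. They were identified by cell barcode: a barcode belonged to them when its heavy-chain contig with the most UMIs (unique molecular identifiers, 1 for each captured RNA molecule) was called to an IGHG constant gene. The rule gave 52 barcodes among the 2014 that had a heavy chain (2.58%), and the comparison class held the 1725 barcodes whose leading contig was IgM or IgD. A further 236 barcodes were IgA and 1 had no constant call. The cells came from the spleens of 3 LDHA-deficient (KO) mice and 3 LDHA-sufficient (WT) mice, in a study of what LDHA, the lactate dehydrogenase subunit that turns pyruvate into lactate, does in the activation and division of germinal centre (GC) B cells. Viable B cells were sorted by GL7, an epitope found on GC and other activated B cells, each mouse carried its own hashtag antibody against CD45 and MHC class I, and all 6 mice shared 1 lane of a 10x 5′ kit. The mouse, and with it the genotype, was taken only where the largest hashtag count was at least 20 and at least 3 times the second, which held for 40 IgG barcodes, 4 of LDHA-deficient and 36 of LDHA-sufficient mice, and for 1112 IgM or IgD barcodes. The age and sex of the mice, any immunisation, and the allele or Cre line behind the LDHA deficiency are not given in these sources.

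When a B cell switches class, cytosines are deaminated in the switch regions in front of the constant genes, and the DNA between a pair of broken switch regions is lost, so that the same V region is joined to a downstream constant gene. Deamination also strikes the rearranged V gene, where error-prone repair leaves point mutations, and cells with improved antigen binding are selected in the GC. Cytokines steer the choice of gamma gene in mice: interferon gamma favours IgG2c, interleukin 4 favours IgG1 and TGF-beta favours IgG2b, while IgG3 is typical of responses to polysaccharides and to bacterial lipopolysaccharide. In the annotation of build GRCm38 (mm10) all of them lie on the minus strand of chromosome 12, downstream of Ighm (chr12:113418558-113422730) and Ighd (chr12:113406604-113416324). Their order is Ighg3 (chr12:113356224-113361232), Ighg1 (chr12:113325240-113330523), Ighg2b (chr12:113302965-113307933) and Ighg2c (chr12:113285325-113288932).

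Ldha separated the genotypes in the cells that the rule did not select. Among IgM or IgD cells it stood at 49.4, 54.0 and 75.9 CPM (a gene's UMIs scaled to the total UMIs of the summed cells, as counts per 1e6) in LDHA-deficient mice 1, 2 and 3, against 264, 260 and 168 CPM in LDHA-sufficient mice 1, 2 and 3. After the cell filter the LDHA-deficient mice gave 251 to 398 cells with median UMIs of 3766 to 3850, and the LDHA-sufficient mice gave 275 to 350 cells with median UMIs of 3984 to 4454. The hashtag and heavy-chain libraries are labelled as haematopoietic stem and progenitor cells, whereas the protocols describe sorted B cells. All 46 IgG barcodes with gene counts held UMIs of the B-cell genes Cd79a, Cd79b and Ms4a1, none held the T-cell gene Cd3e and 1 held the myeloid gene Lyz2.

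The transcripts were compared with the constant calls. Of the 46 IgG barcodes with gene counts, 45 (97.8%) held a UMI of at least 1 of Ighg1, Ighg2b, Ighg2c and Ighg3, against 280 of 1468 IgM or IgD barcodes (19.1%). Of 42 myeloid-like cells, which should lack these genes, 14.3% held one, at median UMIs of 3089.5 against 11875 in IgG and 4763 in IgM or IgD barcodes. By level, Ighg2b stood at 700 CPM in IgG and 50.3 CPM in IgM or IgD barcodes, with 14.7 CPM in myeloid-like cells. Ighg3 stood at 2808 CPM in IgG and 44.3 CPM in IgM or IgD barcodes, with 29.3 CPM in myeloid-like cells. The Ighg3 level of IgG barcodes rested largely on IgG barcode 52, which had hashtags of no single mouse and held 1632 of the 2051 UMIs. By mouse, Ighg3 in IgG cells ranged from 223.8 CPM in LDHA-deficient mouse 1 to 1501 CPM in LDHA-deficient mouse 2. Free RNA as the source of the UMIs in IgM or IgD barcodes was not tested. In 43 of the 46 the gene with the most Ighg UMIs was the subclass of the contig. An Ighm UMI was found in 42 of the 46, but Ighm stood at 479 CPM in IgG barcodes, against 5990 CPM in IgM or IgD barcodes and 763 CPM in myeloid-like cells, of which 85.7% held one. Scaled to total UMIs, the Ighm of IgG barcodes was no higher than in cells that should lack it. Per barcode the median was 4.5 Ighm UMIs in IgG, 13 in IgM or IgD and 2 in myeloid-like cells. The source of the Ighm UMIs in IgG barcodes was not tested. The 6 IgG barcodes without gene counts rested on contigs of 1 or 2 UMIs, 5 of them on 1, whereas IgG contigs with gene counts had a median of 10.5 UMIs and reached 1159. Another 6 had gene counts but hashtags of no single mouse. They enter the counts over all 52 and the values of the 46 with gene counts, and no value by mouse under the hashtag rule above. Among them, IgG barcodes 20 and 32 also rested on contigs of 1 UMI. IgG barcode 20 had 9 Ighm UMIs and no Ighg UMI. IgG barcode 32 had 78 Ighm UMIs and 1 Ighg2b UMI, but none of Ighg2c, its called subclass.

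IgG barcodes were found in 2 of 3 LDHA-deficient and in all 3 LDHA-sufficient mice. They numbered 1 of 176 heavy-chain barcodes (0.568%, exact Clopper-Pearson 95% interval 0.0144 to 3.12%), 3 of 252 (1.19%, 0.246 to 3.44%) and 0 of 144 (0%, 0 to 2.53%) in LDHA-deficient mice 1, 2 and 3. In LDHA-sufficient mice 1, 2 and 3 they numbered 15 of 222 (6.76%, 3.83 to 10.9%), 17 of 206 (8.25%, 4.88 to 12.9%) and 4 of 188 (2.13%, 0.583 to 5.36%). These intervals cover counting error only. The share averaged 0.586 ± 0.595% in LDHA-deficient and 5.71 ± 3.19% in LDHA-sufficient mice (SD, n = 3 each), a difference of -5.13 percentage points. Every LDHA-deficient mouse was below every LDHA-sufficient one, and the two-sided exact permutation test gave p = 0.1, the smallest that 3 against 3 mice allow. LDHA-sufficient mouse 3 lay closer to LDHA-deficient mouse 2 than to the other LDHA-sufficient mice, and their intervals overlapped.

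The share of GC B-like cells was also lower in every LDHA-deficient than in every LDHA-sufficient mouse. Whether the sort by GL7 set either share was not tested. GC B-like cells, named from markers that include Bcl6, S1pr2, Mef2b, Rgs13, Fas, Gcsam and Mybl1 in clusters formed without antibody genes, were 2.80, 2.05 and 2.40% of the B-lineage cells of LDHA-deficient mice 1, 2 and 3, against 19.9, 23.2 and 5.06% in LDHA-sufficient mice 1, 2 and 3. Within GC B-like cells, IgG was the class of 0 of 4, 2 of 6 and 0 of 4 heavy-chain barcodes in the LDHA-deficient mice, against 12 of 34, 15 of 53 and 1 of 10 in the LDHA-sufficient mice. Outside them it was the class of 1 of 165, 1 of 245 and 0 of 138 in the LDHA-deficient mice, against 3 of 181, 1 of 150 and 3 of 173 in the LDHA-sufficient mice. Both sets are small, and whether the share of IgG differs by genotype once the GC share is held fixed was not tested.

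**Figure D1:**
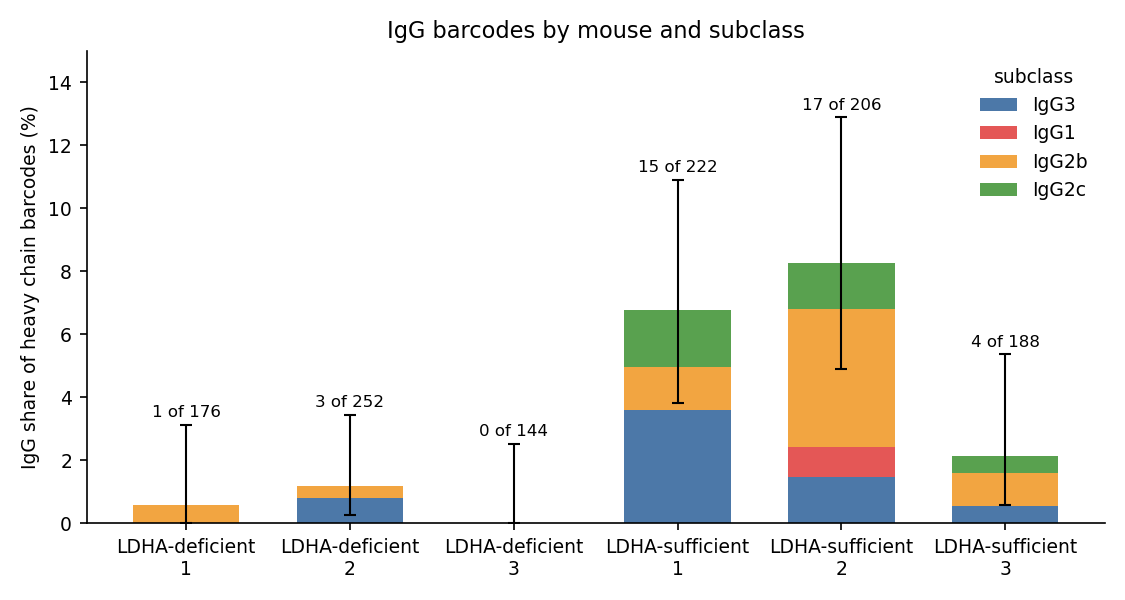
IgG share of heavy-chain barcodes (percent, vertical axis) in each mouse, LDHA-deficient mice left and LDHA-sufficient mice right, with the bar divided by subclass and exact 95% counting intervals as whiskers. The LDHA-deficient mice stand at 0 to 1.19% and the LDHA-sufficient mice at 2.13 to 8.25%.

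IgG2b and IgG3 were the common subclasses. Over all 52 barcodes, 21 were IgG2b (40.4%), 18 IgG3 (34.6%), 11 IgG2c (21.2%) and 2 IgG1 (3.85%). The single barcode of LDHA-deficient mouse 1 was IgG2b, and the 3 of LDHA-deficient mouse 2 were 1 IgG2b and 2 IgG3. LDHA-sufficient mouse 1 had 8 IgG3, 4 IgG2c and 3 IgG2b barcodes, LDHA-sufficient mouse 2 had 9 IgG2b, 3 IgG2c, 3 IgG3 and 2 IgG1, and LDHA-sufficient mouse 3 had 2 IgG2b, 1 IgG2c and 1 IgG3. IgG2c was 0% of the IgG barcodes of LDHA-deficient mice 1 and 2, against 26.7, 17.6 and 25% in LDHA-sufficient mice 1, 2 and 3, so these groups did not overlap, but with 1 and 3 barcodes behind the zeros. Its exact permutation test gave p = 0.1, the smallest that 2 against 3 mice allow, and 0.4 after Benjamini-Hochberg adjustment over the 4 subclasses. No subclass passed the adjusted threshold of 0.05. UMIs of a second subclass were found as well. In 16 IgG3 barcodes with gene counts Ighg2b stood at 284 CPM, with UMIs in 5, and Ighg1 at 101 CPM, with UMIs in 4, against 14.7 and 0 CPM in myeloid-like cells. In 19 IgG2b barcodes Ighg3 stood at 52.6 CPM, with UMIs in 6, which was near the 44.3 CPM of IgM or IgD barcodes and the 29.3 CPM of myeloid-like cells.

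The V regions of IgG barcodes were mutated, and the sequences of the 4 barcodes with the lowest identity to their germline V gene show how far this went. They are printed 5′ to 3′ as the deposited contigs have them, with the bases that differ from the germline V gene in capitals. IgG barcode 37 (IGHV1-64, IgG3) and IgG barcode 38 (IGHV1-81, IgG3) were GC B-like cells of LDHA-sufficient mouse 1. IgG barcode 17 (IGHV14-2, IgG2b) and IgG barcode 31 (IGHV1-39, IgG2c) came from LDHA-sufficient mouse 3 and lay in marginal zone B-like and follicular B-like clusters. Neither had a UMI of Bcl6, the repressor that defines the GC programme, but nor did the GC B-like IgG barcodes 5, 8 and 27. The 4 V genes lie at chr12:115507545-115508031 (Ighv1-64), chr12:113994469-113994898 (Ighv14-2), chr12:115920279-115920712 (Ighv1-81) and chr12:114914599-114915032 (Ighv1-39), all on the minus strand of GRCm38.
IgG barcode 37: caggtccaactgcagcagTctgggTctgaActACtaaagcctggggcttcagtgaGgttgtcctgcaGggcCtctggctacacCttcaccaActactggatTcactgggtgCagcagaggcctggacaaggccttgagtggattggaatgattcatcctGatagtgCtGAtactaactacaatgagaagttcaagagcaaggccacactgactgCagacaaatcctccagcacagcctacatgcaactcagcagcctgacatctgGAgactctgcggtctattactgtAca
IgG barcode 17: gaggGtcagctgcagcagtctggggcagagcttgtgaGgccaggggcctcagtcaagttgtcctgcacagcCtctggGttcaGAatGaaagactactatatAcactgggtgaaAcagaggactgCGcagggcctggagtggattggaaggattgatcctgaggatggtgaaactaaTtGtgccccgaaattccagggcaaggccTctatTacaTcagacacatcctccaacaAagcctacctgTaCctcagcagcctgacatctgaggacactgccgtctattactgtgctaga
IgG barcode 38: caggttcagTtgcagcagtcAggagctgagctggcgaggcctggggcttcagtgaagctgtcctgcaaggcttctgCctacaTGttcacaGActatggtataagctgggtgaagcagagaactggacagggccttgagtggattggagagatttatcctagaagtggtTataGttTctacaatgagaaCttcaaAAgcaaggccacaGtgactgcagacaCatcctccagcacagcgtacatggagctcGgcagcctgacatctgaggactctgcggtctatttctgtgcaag
IgG barcode 31: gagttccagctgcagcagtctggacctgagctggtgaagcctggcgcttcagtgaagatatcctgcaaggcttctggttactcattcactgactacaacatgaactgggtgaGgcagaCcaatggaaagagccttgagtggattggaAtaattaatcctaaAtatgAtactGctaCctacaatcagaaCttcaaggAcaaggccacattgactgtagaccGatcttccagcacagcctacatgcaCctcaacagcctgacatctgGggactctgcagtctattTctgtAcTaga

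IgG barcode 37 differed from germline at 20 of 291 bases (93.1% identity), IgG barcode 17 at 19 of 294 (93.5%), IgG barcode 38 at 16 of 293 (94.5%) and IgG barcode 31 at 15 of 294 (94.9%). At the other end, 10 of the 52 IgG barcodes had no mutated V base. The median was 4.5 mutated bases, 9 barcodes had 10 or more, 21 had 4 to 9 and 12 had 1 to 3. Of 1723 IgM or IgD barcodes with an alignment, 1534 (89.0%) had none, and their highest number was 15. By subclass the median identity was 98.8% for IgG1 (2 barcodes), 98.0% for IgG2b, 99% for IgG2c and 98.6% for IgG3, and the subclasses' identities were not tested against each other.

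Mean V identity was lower in IgG than in IgM or IgD barcodes in 4 of the 5 mice that had IgG barcodes. It was 100% in IgG against 99.95% in IgM or IgD barcodes in LDHA-deficient mouse 1, with its 1 IgG barcode, and 99.22% against 99.96% in LDHA-deficient mouse 2. In LDHA-sufficient mice 1, 2 and 3 it was 97.81, 98.34 and 96.16% in IgG, against 99.86, 99.75 and 99.98% in IgM or IgD barcodes. Over the 5 mice it averaged 98.3 ± 1.46% in IgG and 99.9 ± 0.0954% in IgM or IgD (SD, n = 5), a difference of -1.60 percentage points, and the exact sign-flip permutation test over mice gave p = 0.125, where 5 pairs cannot go below 0.0625. The share of barcodes under 99% identity was 0, 33.3, 66.7, 76.5 and 75% in IgG against 1.18, 1.65, 4.57, 9.19 and 0.562% in IgM or IgD barcodes of the same mice in that order. It differed by 46.9 percentage points on average, with p = 0.125 in the exact sign-flip permutation test. LDHA-deficient mouse 1 was the exception in both measures.

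IgG barcodes of LDHA-deficient mice were few and little mutated. Mean identity was 99.6 ± 0.552% in LDHA-deficient (SD, n = 2) and 97.4 ± 1.14% in LDHA-sufficient mice (SD, n = 3), a difference of 2.18 percentage points with p = 0.2 in the exact permutation test, which cannot go below 0.1 here. Of the 4 IgG barcodes of LDHA-deficient mice, 3 had no mutated base and 1, an IgG2b barcode of LDHA-deficient mouse 2 with a contig of 2 UMIs, had 7. With hashtags read by HTODemux, another method, which does not call the 2 unmutated barcodes of LDHA-deficient mouse 2 single, the difference was 1.16 percentage points (p = 0.6, exact permutation test). The IgG barcodes of LDHA-sufficient mice 1, 2 and 3 had medians of 5, 4 and 12.5 mutated bases.

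Within GC B-like cells, mutations were more numerous in IgG than in IgM or IgD barcodes of LDHA-sufficient mice 1 and 2, and not of LDHA-deficient mouse 2. The median was 6 mutated bases in 12 IgG against 2 in 22 IgM or IgD barcodes of LDHA-sufficient mouse 1, and 6 in 15 IgG against 1 in 37 IgM or IgD barcodes of LDHA-sufficient mouse 2. In LDHA-deficient mouse 2 it was 0 in 2 IgG against 2 in 4 IgM or IgD barcodes. Over all mice 4 of 30 IgG and 30 of 80 IgM or IgD barcodes in GC B-like cells were unmutated. Outside GC B-like cells the 10 IgG barcodes had a median of 2 mutated bases and 4 were unmutated. These are descriptions of barcodes, since no more than 2 mice had enough cells of both classes.

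**Figure D2:**
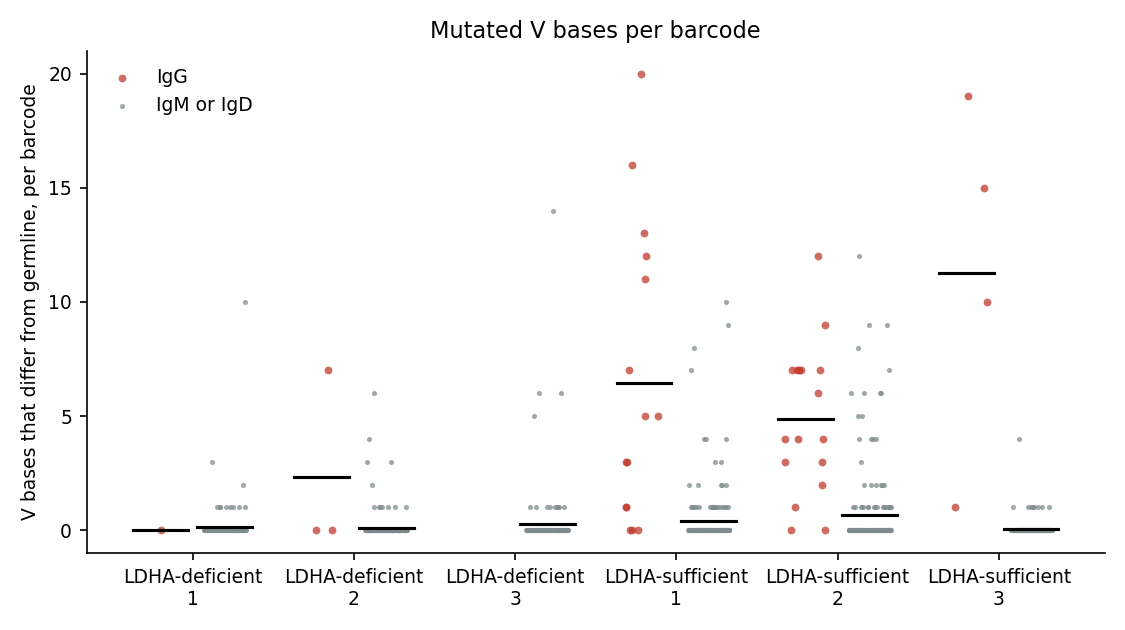
V bases that differ from germline (vertical axis, number per barcode) in IgG barcodes (red, left of each pair) and IgM or IgD barcodes (grey), by mouse, with a black bar at the mean. LDHA-deficient mouse 3 has no IgG barcode, the IgG barcodes of LDHA-sufficient mouse 1 reach 20 mutated bases, and most IgM or IgD barcodes lie at 0.

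In IgG barcodes, mutations were densest in the antigen-contacting loops. Per 100 bases, IgG barcodes had 3.19 mutations in CDR1 and 3.92 in CDR2, the loops that touch antigen, and 1.08, 1.36 and 1.79 in the framework regions FWR1, FWR2 and FWR3. IgM or IgD barcodes had 0.0878 and 0.178 in CDR1 and CDR2, and 0.0658, 0.0854 and 0.113 in FWR1, FWR2 and FWR3, so that their CDR1 was below FWR3. Counting a mutation once per clone, IgG barcodes had 261, of which 55.9% were transitions and 193 (73.9%) changed the amino acid. In IgG barcodes 20.3% of the mutations at G or C fell in the motif AGCT, a hotspot of hypermutation that reads the same on both strands and held 4.01% of the G and C bases of these V regions. In IgM or IgD barcodes the shares were 20.2 and 4.03%. The density of mutations thus differed between the classes while the share in the motif was alike in value, and neither was tested.

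IgG barcodes drew on 25 V genes, all of which also occurred among the 86 V genes of IgM or IgD barcodes. IGHV1-72 was the most frequent with 6 of 52 IgG barcodes (11.5%) against 71 IgM or IgD barcodes (4.12%), and 4 of the 6 were unmutated. IGHV5-17 came second with 5 (9.62%), all of 1 clone, against 35 (2.03%). IGHV1-49 had 4 IgG barcodes, again of 1 clone, against 1 IgM or IgD barcode, and IGHV8-8 had 4 from 4 clones against 46. By family, IGHV6 and IGHV10 had no IgG barcode, against 73 (4.23%) and 49 (2.84%) IgM or IgD barcodes. For each of them the exact sign-flip permutation test over 5 mice gave p = 0.0625, the smallest possible, and 0.3125 after Benjamini-Hochberg adjustment over 10 families, so no family passed the threshold. With no IgG barcode in any mouse every difference had to be negative, so the zeros fixed this p-value however few barcodes lay behind them. A count of 0 among 40 single-hashtag IgG barcodes leaves room for shares of this size. The segment IGHJ1 was called in 34.6% of IgG and 17.6% of IgM or IgD barcodes, and the largest IgG clones carried it.

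One V gene sets a limit on the identity values. None of 39 IgM or IgD barcodes of IGHV1-69 matched its germline sequence fully, and their median identity was 99.66%, and its 2 IgG barcodes had a median of 96.8%. How much of that difference was mutation was not tested. For 22 of the 25 V genes of IgG barcodes the median identity of IgM or IgD barcodes was 100%. The junction, the stretch that joins V, D and J and forms the third antigen loop, had a median of 39 bases in IgG (24 to 57) and 42 in IgM or IgD barcodes (21 to 69). By mouse its mean was 48.0, 33.0, 39.4, 41.1 and 39.0 bases in IgG, against 41.3, 42.2, 41.0, 42.6 and 42.8 in IgM or IgD barcodes. The difference of -1.89 bases was smaller than its spread over mice (SD 5.74, n = 5), with p = 0.5 in the exact sign-flip permutation test.

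Most IgG clones were seen once. The 52 barcodes fell into 42 deposited clones, 37 with a single IgG barcode and 5 with 2 or more, which held 15 barcodes together. Clones are called by their number in the deposited table. In LDHA-sufficient mice 1 and 2, 26.7 and 41.2% of IgG barcodes shared a clone with another barcode of the same mouse, against 7.61 and 7.57% of IgM or IgD barcodes. In LDHA-deficient mice 1 and 2 and in LDHA-sufficient mouse 3 no IgG barcode did, against 3.55, 1.65 and 0% of IgM or IgD barcodes. Pooled over mice the shares were 27.5% of 40 IgG and 3.51% of 1112 IgM or IgD barcodes, but over the 5 mice the difference averaged 9.49 percentage points with p = 0.5 in the exact sign-flip permutation test. The pooled contrast came from LDHA-sufficient mice 1 and 2, which gave 32 of the 40 barcodes.

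Clone 879 (IGHV5-17 with IGHJ1, Ighv5-17 at chr12:113859149-113859670, minus strand) had the most IgG barcodes, 5, all GC B-like cells of LDHA-sufficient mouse 2. It spanned 3 subclasses, with 3 IgG2b, 1 IgG2c and 1 IgG3 barcode, and 6 IgM or IgD barcodes. The junctions of its IgG barcodes and of its 2 IgM barcodes with a single hashtag differ at 3 of 39 bases, which are in capitals.
IgG barcode 28: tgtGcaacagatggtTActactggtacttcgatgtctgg
IgG barcode 15: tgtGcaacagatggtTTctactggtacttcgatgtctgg
IgG barcode 16: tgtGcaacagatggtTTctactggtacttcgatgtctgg
IgG barcode 12: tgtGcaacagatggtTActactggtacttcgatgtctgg
IgG barcode 45: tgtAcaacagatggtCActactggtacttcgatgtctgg
IgM barcode of LDHA-sufficient 2: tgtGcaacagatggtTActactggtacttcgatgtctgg
IgM barcode of LDHA-deficient 2: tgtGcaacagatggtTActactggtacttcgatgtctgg
The V regions of the IgG2c barcode, of 1 IgG2b barcode and of the IgM barcode of the same mouse show that they carry different mutations, again in capitals.
IgG barcode 28: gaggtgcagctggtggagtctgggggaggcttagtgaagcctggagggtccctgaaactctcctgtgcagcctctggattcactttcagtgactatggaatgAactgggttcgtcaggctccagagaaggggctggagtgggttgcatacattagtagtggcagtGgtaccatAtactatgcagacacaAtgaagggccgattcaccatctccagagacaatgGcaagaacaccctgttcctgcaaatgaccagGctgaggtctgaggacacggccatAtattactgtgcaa
IgG barcode 15: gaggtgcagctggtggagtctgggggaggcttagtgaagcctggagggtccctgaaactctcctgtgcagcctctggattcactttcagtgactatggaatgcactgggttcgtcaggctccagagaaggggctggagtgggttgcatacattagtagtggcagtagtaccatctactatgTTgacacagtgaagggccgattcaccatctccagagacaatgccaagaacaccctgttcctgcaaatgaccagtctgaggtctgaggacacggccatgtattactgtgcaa
IgM barcode of LDHA-sufficient 2: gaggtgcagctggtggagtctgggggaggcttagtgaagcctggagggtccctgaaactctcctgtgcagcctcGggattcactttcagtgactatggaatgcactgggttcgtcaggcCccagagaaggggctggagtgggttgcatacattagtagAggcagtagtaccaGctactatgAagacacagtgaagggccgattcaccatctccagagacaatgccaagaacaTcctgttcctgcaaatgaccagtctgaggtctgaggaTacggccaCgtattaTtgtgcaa
The 5 IgG barcodes had 1 to 7 mutated V bases and the IgM barcode of LDHA-sufficient mouse 2 had 9. Counted from 1 at the first base of the germline V gene, A166G and G279A occurred in 3 of the 5 IgG barcodes and C182T in 2, and no change occurred in all 5. None of the changes of the IgG barcodes was found in either IgM barcode. The IgM barcodes of LDHA-sufficient mouse 2 and LDHA-deficient mouse 2 shared T75G, T173G and C270T although they were assigned to different mice. Chains with the same V, J and junction in more than 1 mouse numbered 10 in the series and touched 2 of the 40 IgG barcodes.

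Clone 362 (IGHV1-49 with IGHJ1, Ighv1-49 at chr12:115055223-115055656, minus strand) had 4 IgG3 barcodes and 1 IgM barcode. Of these, 2 IgG3 barcodes and the IgM barcode carried the hashtag of LDHA-sufficient mouse 1, and here the classes shared mutations: C98T was present in all 3 and C285T in IgG barcode 41 and the IgM barcode. Their junctions are shown with the 3 positions that differ in capitals.
IgG barcode 41: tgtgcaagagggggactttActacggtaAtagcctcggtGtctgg
IgG barcode 43: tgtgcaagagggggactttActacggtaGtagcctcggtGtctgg
IgM barcode of LDHA-sufficient 1: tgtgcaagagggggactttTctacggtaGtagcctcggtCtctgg
Clone 19 (IGHV1-72 with IGHJ3, Ighv1-72 at chr12:115757984-115758461, minus strand) held IgG2b barcodes 11 and 13 of LDHA-sufficient mouse 2 and no IgM or IgD barcode. They shared G30C, A163G and A172T, carried 5 further V changes between them and had the same junction.
IgG barcode 11: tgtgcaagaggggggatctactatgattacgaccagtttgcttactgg
IgG barcode 13: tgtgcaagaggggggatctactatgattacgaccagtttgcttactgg

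IgG cells were mostly GC B-like. Their GC B-like share was 0, 66.7, 80.0, 88.2 and 25% in LDHA-deficient mice 1 and 2 and LDHA-sufficient mice 1, 2 and 3, against 2.40, 1.65, 11.2, 20.5 and 5.08% of IgM or IgD cells of the same mice. It was higher in 4 of 5 mice, with an average difference of 43.8 percentage points and p = 0.125 in the exact sign-flip permutation test. With hashtags read by HTODemux the difference was 29.1 percentage points (p = 0.25, same exact test). Of 40 IgG cells 30 were GC B-like, 4 follicular B-like, 4 marginal zone B-like, 1 plasma cell-like and 1 in an unnamed cluster. None lay in the activated or interferon-responding clusters, which held 7.86 and 5.60% of 1107 IgM or IgD cells. A count of 0 among 40 IgG cells leaves room for shares near these, and the difference was not tested. Of the pair of GC B-like clusters, the one led by cell division genes such as Neil3 and Spag5 held 8 and 8 IgG cells of LDHA-sufficient mice 1 and 2, and the one led by S1pr2 held 4 and 7. IgG2b and IgG3 each reached the GC B-like clusters, with 11 and 13 barcodes, as did 5 IgG2c and 1 IgG1. IgG cells held more RNA as well: by mouse their median UMIs were 22341, 25225, 13650, 10270 and 8778, against 4053, 4065, 4302, 4828 and 4258 in IgM or IgD cells, and the part of this depth in the results on genes was not tested beyond the scaling to totals.

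**Figure D3:**
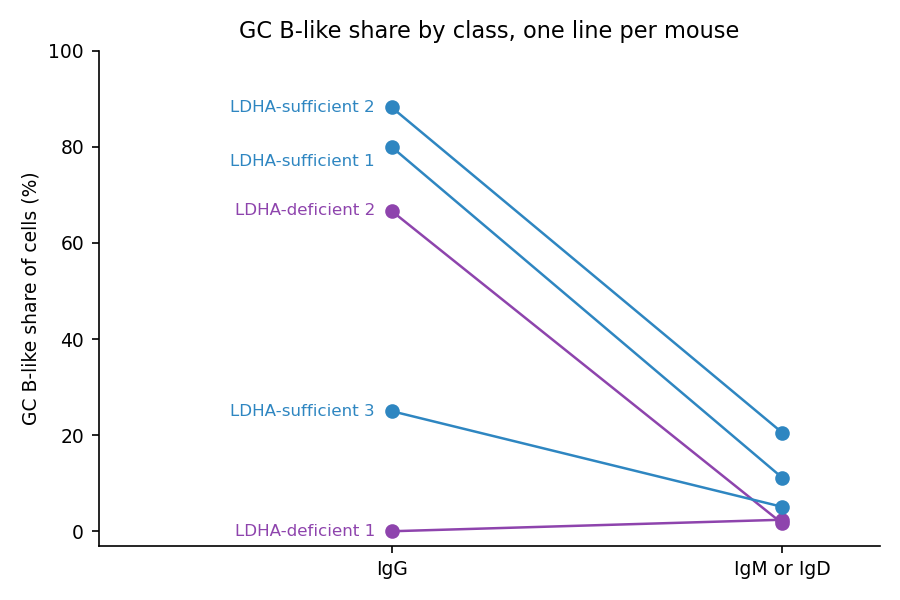
GC B-like share (percent, vertical axis) of IgG cells and of IgM or IgD cells, with a line for each of the 5 mice that had IgG cells. The share in IgG cells is higher in 4 mice, at 25 to 88.2%, and at 0% in LDHA-deficient mouse 1, which had 1 IgG cell.

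For the comparison of genes, UMIs were summed over the IgG and the IgM or IgD cells of each mouse, and only LDHA-sufficient mice 1 and 2 had at least 5 cells of each class. Their 15 and 17 IgG cells gave 221734 and 228506 UMIs, against 1434488 and 1305399 UMIs from 197 and 185 IgM or IgD cells. Of 7931 genes tested with edgeR's quasi-likelihood test and the mouse as a block, 918 (11.6%) passed an adjusted p of 0.05, 404 (5.09%) higher and 514 (6.48%) lower in IgG cells. The fit rests on 2 mice and 1 residual degree of freedom. As the GC B-like share differed between the classes, the IgM or IgD cells were also drawn to the same share, and then 32 of 5534 genes (0.578%) passed, 16 higher (0.289%) and 16 lower (0.289%). DESeq2 called 139 genes, 57 higher and 82 lower. All 918 genes kept their direction there, and 624 of the 693 tested in the matched cells did. Of 35 named genes tested in the matched cells, 4 had the same outcome, 28 were weaker and 3 reversed.

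The programme of GC B cells was higher in IgG cells. Of 14 GC B cell genes tested, 12 were higher and none lower, with a median log2 fold change of 1.55 where that of all genes was -0.04. Gcsam, a GC adaptor protein that limits motility, had 298 and 206 CPM in IgG cells of LDHA-sufficient mice 1 and 2, against 41.1 and 45.2 CPM in IgM or IgD cells, a log2 fold change of 2.38 ± 0.28 (SE, adjusted p = 3.40e-15, edgeR). The IgG libraries were several times above the others in both mice. Basp1, a membrane-associated signalling protein, had 379 and 521 CPM in IgG against 123 and 81.2 CPM in IgM or IgD cells (2.00 ± 0.22, adjusted p = 1.28e-16, edgeR). Mybl1, a transcription factor of the GC, had 496 and 324 CPM against 89.2 and 113 CPM (1.86 ± 0.22, adjusted p = 4.37e-14, edgeR). Neil1, a DNA glycosylase, had 306.7 and 298 CPM against 67.6 and 113 CPM (1.63 ± 0.24, adjusted p = 2.70e-09, edgeR). Bcl6 moved less, with 176 and 188 CPM in IgG against 80.9 and 108 CPM in IgM or IgD cells (0.81 ± 0.27, adjusted p = 0.0254, edgeR). With matched cells Gcsam stayed past the threshold at 1.27, while Bcl6 stood at 0.09 and no longer passed. In the mice with too few IgG cells for the fit, Bcl6 was not higher in value. LDHA-deficient mouse 2 had 67.2 CPM in IgG (exact Poisson interval 24.7 to 146, from 6 UMIs) against 69.8 CPM in IgM or IgD cells. LDHA-sufficient mouse 3 had 0 CPM (0 to 107) against 85.0 CPM. These wide intervals hold the IgM or IgD values, so the few cells cannot show whether Bcl6 was higher there.

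Of 20 genes of the class switch and hypermutation machinery, 3 were higher and none lower. Polh, the error-prone polymerase that places mutations at A and T, had 293 and 118 CPM in IgG against 21.6 and 53.6 CPM in IgM or IgD cells (log2 fold change 2.31 ± 0.36 SE, adjusted p = 6.81e-06, edgeR). Msh6, of the mismatch repair pair that recruits it, had 135 and 184 CPM against 55.1 and 78.1 CPM (1.12 ± 0.29, adjusted p = 0.00218, edgeR). Polh kept its call with matched cells (1.44), whereas Msh6 (0.39) did not.

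Genes of cell division were higher in IgG cells of the 2 fitted mice. Of 26 genes of G2 and M phase 22 were higher, of 22 S phase genes 14, and of 11 dark zone genes, which mark the dividing GC compartment, 8, with none lower in any of these lists and medians of 1.15, 0.86 and 1.14. Mki67, the proliferation antigen, had 2954 and 1527 CPM in IgG against 689 and 850 CPM in IgM or IgD cells (1.33 ± 0.17, adjusted p = 5.61e-08, edgeR). Tpx2, a spindle factor, had 456 and 223 CPM against 69.0 and 106 CPM (1.78 ± 0.24, adjusted p = 1.09e-10, edgeR). Top2a, which untangles chromosomes, had 1434 and 827 CPM against 447 and 452 CPM (1.14 ± 0.17, adjusted p = 1.47e-09, edgeR). With matched cells none of these 3 passed, Mki67 at 0.17, Tpx2 at 0.62 and Top2a at -0.067. LDHA-sufficient mouse 3, whose 4 IgG cells held 1 GC B-like cell, went the other way, with Mki67 at 58.2 CPM (exact Poisson interval 7.05 to 210) in IgG against 387 CPM (349 to 428) in IgM or IgD cells, and Top2a at 58.2 against 276 CPM. LDHA-deficient mouse 2 had Mki67 at 1949 CPM in 3 IgG cells against 105 CPM in IgM or IgD cells.

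Light zone genes, which mark the GC compartment where cells compete for T cell help, were lower or not past the threshold: 6 of 13 fell and none rose (median -0.65). Ccnd2, cyclin D2, had 9.02 and 43.8 CPM in IgG against 145 and 100 CPM in IgM or IgD cells (-2.33 ± 0.40, adjusted p = 3.26e-07, edgeR). Cd83, a surface protein of light zone cells, had 31.6 and 101 CPM against 148 and 168 CPM (-1.44 ± 0.31, adjusted p = 0.000108, edgeR), although LDHA-sufficient mouse 3, outside the fit, had 291 CPM in IgG against 142 CPM. Batf, a transcription factor needed for class switching, fell by 2.53 on the log2 scale (SE 0.68, adjusted p = 0.00309, edgeR) with 9.02 and 4.38 CPM against 48.1 and 23.0 CPM, from 2 and 1 UMIs in IgG cells. It was lower with matched cells (-3.41), but with at least 3 cells per mouse and without LDHA-sufficient mouse 1 the direction turned (0.070), and LDHA-deficient mouse 2 had 78.4 CPM in IgG against 22.2 CPM in IgM or IgD cells. Of 12 immediate early genes, switched on minutes after stimulation, 7 fell and none rose (median -1.01), among them Myc with 0 and 35.0 CPM in IgG against 62.0 and 64.3 CPM in IgM or IgD cells (-2.0 ± 0.50, adjusted p = 0.00134, edgeR).

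Genes of resting follicular and marginal zone B cells were lower in IgG cells, 8 of 11 and 7 of 12 with none higher, at medians of -1.60 and -1.74. Ighd, a follicular gene that the rule itself used, is left out. Fcer2a (CD23), the low-affinity IgE receptor of follicular cells, had 54.1 and 83.1 CPM in IgG against 291 and 365 CPM in IgM or IgD cells (-2.41 ± 0.27, adjusted p = 1.59e-16, edgeR). Cr2 (CD21), the complement receptor most abundant on marginal zone cells, had 72.2 and 171 CPM against 565 and 524 CPM (-2.34 ± 0.23, adjusted p = 1.21e-20, edgeR). Receptors that guide cells out of and through lymphoid tissue followed, with 9 of 18 trafficking genes lower and 2 higher. S1pr1, needed for egress, had 27.1 and 17.5 CPM against 157 and 139 CPM (-2.88 ± 0.40, adjusted p = 5.84e-11, edgeR), and Ccr7, which draws cells to the T zone, had 4.51 and 8.75 CPM against 57.9 and 72.8 CPM (-3.41 ± 0.62, adjusted p = 2.71e-06, edgeR). Klf2, the factor that switches on S1pr1, had 63.1 and 8.75 CPM against 160 and 185 CPM (-2.44 ± 0.35, adjusted p = 6.74e-10, edgeR). Cr2, Fcer2a and Klf2 had values of -0.64, -0.88 and -0.57 with matched cells and did not pass there. Klf2 was not lower in the mice outside the fit, at 302 CPM in IgG against 268 CPM in IgM or IgD cells of LDHA-deficient mouse 2 and at 320 against 276 CPM in LDHA-sufficient mouse 3.

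Antigen presentation genes fell in 9 of 14 and antigen receptor genes in 6 of 23, with none higher and medians of -0.60 and -0.31. These counts are over all B-lineage cells, where the classes differed in GC B-like share. Within GC B-like cells, without a test, 6 of 12 antigen presentation genes were lower in both mice and 0 higher. Of 23 antigen receptor genes 8 were lower and 7 higher there, where 24% of all genes were lower and 28.4% higher. Cd74, the invariant chain of MHC class II, had 9372 and 10065 CPM in IgG against 11815 and 13259 CPM in IgM or IgD cells (-0.51 ± 0.09, adjusted p = 2.39e-06, edgeR), and Cd79a, the signalling chain of the antigen receptor, had 1303 and 1405 CPM against 2128 and 2549 CPM (-0.93 ± 0.14, adjusted p = 1.05e-09, edgeR). Among glycolysis enzymes 1 of 15 was higher, Gapdh with 1231 and 1501 CPM against 892 and 907 CPM (0.45 ± 0.15, adjusted p = 0.0289, edgeR), a share near that of all genes. Ldha itself had 253 and 359 CPM in IgG against 264 and 260 CPM in IgM or IgD cells and did not pass (0.06 ± 0.21, adjusted p = 0.926, edgeR).

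The memory B cell list split. Of 19 genes tested 12 were lower and 3 higher, with a median of -1.73, over all B-lineage cells and so with unlike GC B-like shares. Within GC B-like cells, without a test, 4 of 9 were lower in both mice and 2 higher, where 24% of all genes were lower and 28.4% higher. Bcl2, the survival factor of resting and memory cells, had 4.51 and 17.5 CPM in IgG against 105 and 91.2 CPM in IgM or IgD cells (-3.27 ± 0.50, adjusted p = 7.83e-09, edgeR). Cd38, which mouse GC B cells lose and memory cells regain, had 40.6 and 109 CPM against 256 and 234 CPM (-1.87 ± 0.28, adjusted p = 2.70e-09, edgeR). In LDHA-sufficient mouse 3, outside the fit, Cd38 had 349 CPM in IgG against 332 CPM in IgM or IgD cells. Anxa2, a membrane-binding annexin, was higher with 189 and 254 CPM against 49.5 and 87.3 CPM (1.58 ± 0.27, adjusted p = 3.21e-07, edgeR). Cxcr3, a chemokine receptor of cells that met interferon gamma, had 13.5 and 35.0 CPM against 3.49 and 4.60 CPM (2.37 ± 0.67, adjusted p = 0.00633, edgeR), from 3 and 8 UMIs in 2 and 4 IgG cells.

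**Figure D4:**
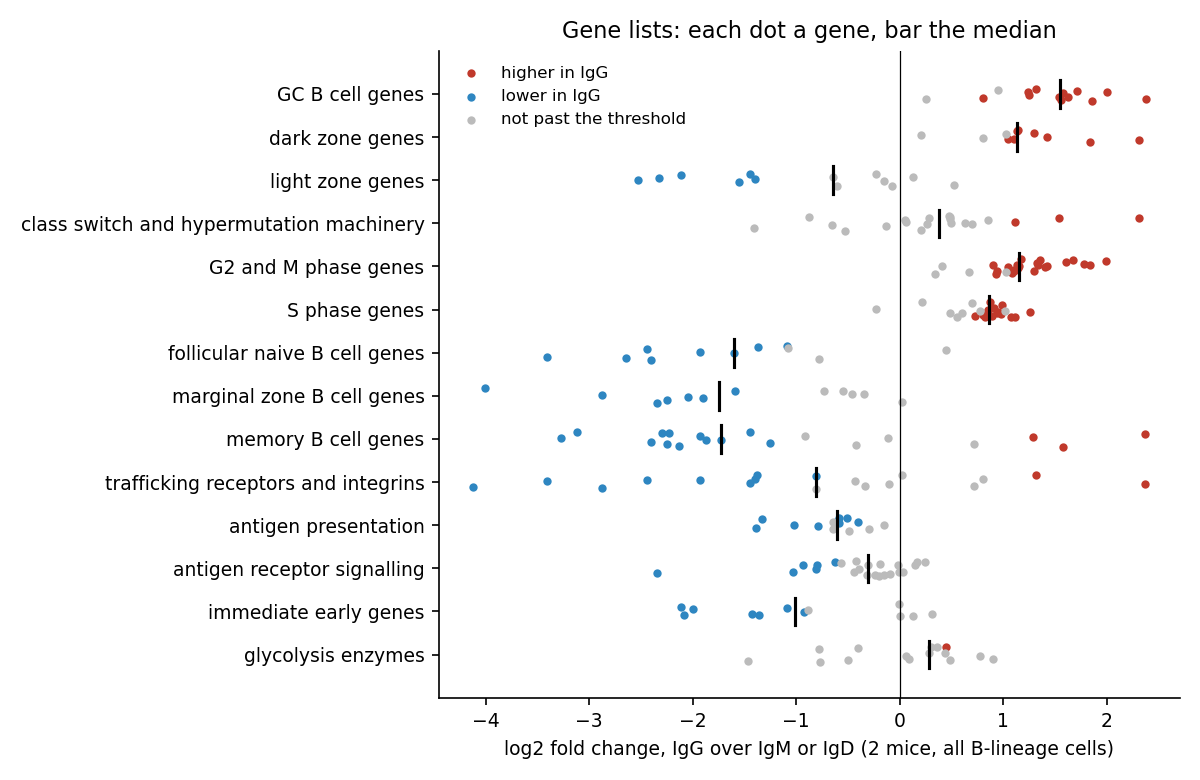
Log2 fold changes of IgG over IgM or IgD cells (horizontal axis, edgeR, 2 mice) for the tested genes of 14 lists, each dot a gene and each black bar the list's median. Division and GC genes lie mostly right of 0, with medians of 0.86 to 1.55, and follicular, marginal zone and memory genes mostly left of it, with medians of -1.74 to -1.60. Jun, with no UMI in IgG cells, is drawn at its bound.

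With antibody genes left out, since the rule used them, the largest rise past the threshold belonged to Emp2, a membrane protein of the tetraspan family, with 81.2 and 21.9 CPM in IgG against 3.49 and 0 CPM in IgM or IgD cells (4.64 ± 0.69, adjusted p = 1.76e-09, edgeR). It was detected in 3 of 15 and 2 of 17 IgG cells, and 11 of its 18 UMIs in LDHA-sufficient mouse 1 came from 1 cell. Lmo7, a LIM domain protein, was found in 7 and 5 IgG cells, with 253 and 35.0 CPM against 23.0 and 15.3 CPM (2.57 ± 0.37, adjusted p = 8.48e-10, edgeR), and it kept its call with matched cells (1.39). The other genes among the 12 largest rises were Bmpr1a, Parm1, Otub2, Orc1, Etl4, Fam135a, Pcbp4, Gcsam, Cxcr3 and Sh2b2, with log2 fold changes of 2.35 to 3.46. The 12 largest falls had no UMI in the IgG cells of either mouse, so that only bounds can be given, from a floor of 3 UMIs over both IgG libraries (6.66 CPM). Such genes passed the count filter only through their counts in IgM or IgD cells. All 27 genes tested with no UMI in either IgG library were called lower, so their calls were largely set by the filter. Slfn5, a Schlafen family gene, was at least 6.90-fold lower, Isg15, the interferon-induced ubiquitin-like modifier, at least 5.70-fold, Fkbp11, a chaperone of secretory cells, at least 4.44-fold and Jun, a subunit of the AP-1 factor, at least 2.68-fold. Outside the fit, Isg15 had 58.2 CPM in IgG, from 2 UMIs, against 37.3 CPM in IgM or IgD cells of LDHA-sufficient mouse 3. In LDHA-deficient mouse 2 it had 0 against 35.7 CPM.

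Within GC B-like cells, where the classes share a state, only LDHA-sufficient mice 1 and 2 had 5 or more cells of each class, so values are given without a test. They had 12 and 15 IgG against 22 and 38 IgM or IgD cells. Of 4688 genes with at least 20 UMIs in each mouse, 28.4% were higher and 24% lower in IgG cells in both mice. Of the 14 GC B cell genes 11 were higher in both and none lower, while of 9 light zone genes 5 were lower in both and none higher. On the log2 scale of CPM plus 10, genes at least 2-fold higher in both mice numbered 10 (0.213%) and those at least 2-fold lower 26 (0.555%). Gcsam stood at 337 and 226 CPM in IgG against 107 and 105 CPM in IgM or IgD cells. The linker histone gene Hist1h1c stood at 516 and 429 CPM against 233 and 135 CPM, and Kdm6a, a histone H3 demethylase, at 184 and 164 CPM against 81.3 and 53.5 CPM. All 3 were at least 2-fold higher in both mice.

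A large fall within GC B-like cells was that of Ly6d, a surface protein of the Ly6 family, with 86.8 and 62.6 CPM in IgG against 490 and 503 CPM in IgM or IgD cells. Ccnd2 had 10.2 and 0 CPM against 103 and 53.5 CPM, and Plac8 had 15.3 and 43.3 CPM against 118 and 291 CPM. Cd38 had 10.2 and 38.5 CPM against 55.6 and 119 CPM. All 4 were lower in IgG cells of both mice. Mki67 did not keep 1 direction, with 3340 and 1608 CPM in IgG against 1853 and 2038 CPM in IgM or IgD cells. Ldha had 260 and 371 CPM in IgG against 509 and 362 CPM in IgM or IgD GC B-like cells.

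With GC B-like cells and plasma cell-like cells set aside, there were 9 IgG cells from 5 mice, with 83613 UMIs, against 1013 IgM or IgD cells with 5119340 UMIs from 6 mice. No mouse had 5 such IgG cells, and values are given with exact Poisson intervals that cover counting error only. Of 10831 genes with at least 10 UMIs here, 2.07% had an interval in IgG cells above every IgM or IgD mouse and 1.27% below every one. Of 22 memory B cell genes, 7 lay above and 1 below. These 7 were Vim, Ahnak, Ccr6, Itgb1, Lgals1, Zbtb32 and Cxcr3. Vim, an intermediate filament, stood at 730 CPM (558 to 937) in IgG cells against 123 to 252 CPM in IgM or IgD cells of the mice, and was found in 8 of 9 IgG cells. Ccr6, a chemokine receptor kept by memory precursors, stood at 251 CPM (155 to 384) against 76.8 to 90.6 CPM, in 7 of 9 cells. Zbtb32, a repressor that marks memory B cells, stood at 120 CPM (57.4 to 220) against 4.53 to 11.7 CPM, in 5 of 9 cells. Cxcr3 stood at 71.8 CPM (26.3 to 156) against 0 to 6.50 CPM, in 3 of 9 cells.

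Single mice carried part of these sums. Ahnak, a scaffold protein, stood at 514 CPM (372 to 693) in IgG against 22.6 to 116 CPM in IgM or IgD cells, with 31 of its 43 UMIs from the 3 cells of LDHA-sufficient mouse 3, and Lgals1, galectin-1, had 10 of 12 UMIs from the same cells. Of the 17 UMIs of Itgb1, 10 came from the 1 cell of LDHA-sufficient mouse 2, as did 4 of the 6 UMIs of Cxcr3. Vim was spread over the mice, at 358 and 319 CPM in the 1 cell each of LDHA-deficient mice 1 and 2 and at 695, 1061 and 1052 CPM in LDHA-sufficient mice 1, 2 and 3. Of other genes, Itga4, the alpha chain of VLA-4, stood at 1184 CPM (962 to 1442) against 306.1 to 385 CPM, and Crip1, a small LIM protein, at 1256 CPM (1027 to 1520) against 546 to 609 CPM.

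The same 9 cells were low in naive B cell genes. Of 11 follicular genes, Ighd left out, 5 had an interval below every IgM or IgD mouse and none above. Foxp1, a factor that maintains naive cells, stood at 263 CPM (165 to 398) in IgG against 604 to 707 CPM in IgM or IgD cells, and Bach2, a repressor of plasma cell fate, at 108 CPM (49.2 to 204) against 205 to 289 CPM. Of 14 GC genes 7 had no UMI in these cells, 6 were above every IgM or IgD mouse in value where 27.6% of all genes were, and 1 had its interval above. Bcl6 stood at 12 CPM (0.303 to 66.6) against 30.2 to 79.5 CPM. Not all memory genes were high: Fcer2a lay below every mouse, and Pdcd1lg2, Cd9 and Itgax had no UMI.

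**Figure D5:**
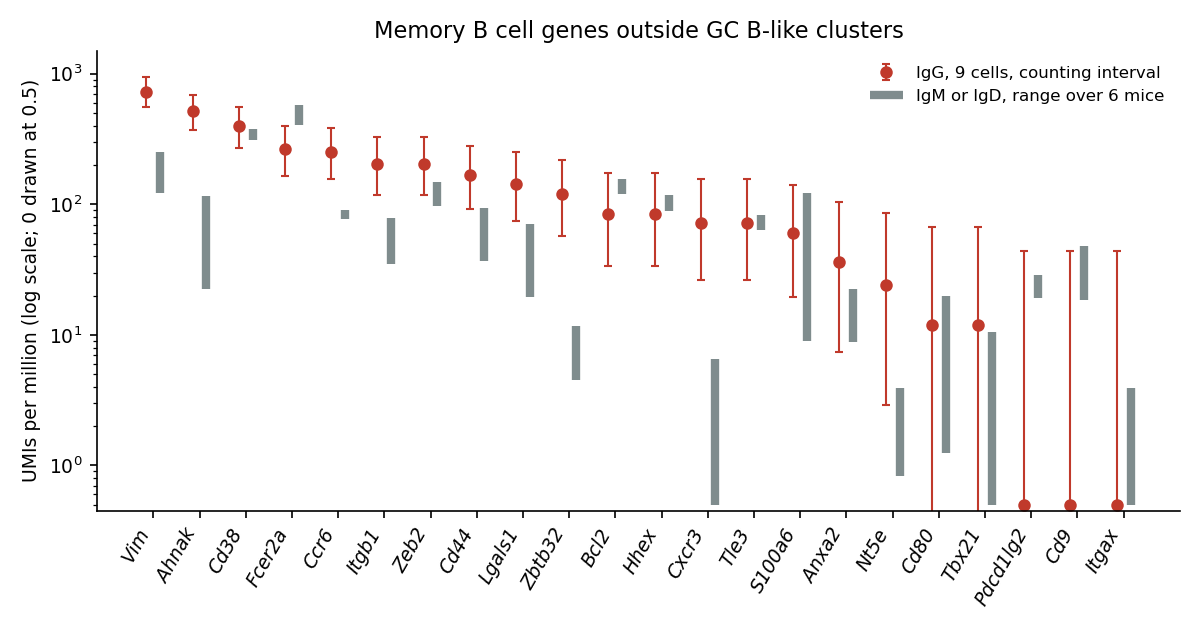
Levels of 22 of 23 memory B cell genes (vertical axis, CPM, log scale, 0 drawn at 0.5) once GC B-like cells and plasma cell-like cells are set aside, as the sum of 9 IgG cells with its exact 95% counting interval (red) beside the range over the IgM or IgD cells of 6 mice (grey). Vim, Ahnak, Ccr6, Itgb1, Lgals1, Zbtb32 and Cxcr3 lie above the range and Fcer2a below it.

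Ldha in IgG cells was lower in value in both LDHA-deficient mice that had such cells than in any LDHA-sufficient mouse. LDHA-deficient mouse 1 had 0 UMIs in its 1 IgG cell (exact Poisson interval 0 to 165 CPM), and LDHA-deficient mouse 2 had 134 CPM (exact Poisson interval 69.5 to 235) from 12 UMIs in 3 cells, against 253, 359 and 204 CPM in LDHA-sufficient mice 1, 2 and 3. Of those 12 UMIs, 11 came from IgG barcode 35, 1 of the 2 GC B-like IgG3 barcodes of LDHA-deficient mouse 2. Both of these barcodes, 35 and 36, were large, with 25225 and 60908 UMIs, had unmutated V regions, and were not called single by HTODemux. Without them LDHA-deficient mice held 2 IgG barcodes in all and no GC B-like one. No LDHA-deficient mouse had 5 IgG cells, so gene levels of IgG cells could not be compared between genotypes, nor could the difference between the genotype effect in IgG and in IgM or IgD cells.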

How the data were processed

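The authors deposited UMI counts per gene and barcode and per hashtag and barcode. Cell Ranger 6.0.0, Seurat 4.2.1 and mm10 are named per the submitters' processing notes, while the matrix header names Cell Ranger 6.0.2. Per the file headers, the heavy-chain table holds contigs with gene calls, germline alignments, clone numbers and V identity as a fraction of matching V bases, deposited by the authors. The sources used here do not name the aligner or clone caller.

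Barcodes were kept with at least 500 genes, at least 1000 UMIs and under 10% mitochondrial UMIs. Cells were clustered with scanpy 1.11.5 (Leiden, resolution 0.8, 20 neighbours, 30 principal components, 2000 variable genes) without antibody, T-cell receptor, mitochondrial, ribosomal and sex-linked genes and Ldha. A cluster was named when at least 3 of a class's markers, and 50% or more of them, were 1.5-fold higher and found in 10% of its cells. The 50% condition was set after the data were seen. Doublets were removed only as barcodes with hashtags of several mice, so doublets within a mouse remain.

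Each mouse is 1 replicate. The classes are paired because IgG and IgM or IgD cells come from the same animals. Repertoire values were tested with exact permutation tests (scipy 1.17.1), and summed UMI counts with edgeR 4.0.16 (R 4.3.3), TMM scaling, filterByExpr, the robust quasi-likelihood test, mouse as block and Benjamini-Hochberg adjustment. SE is the log2 fold change divided by the root of F. On counts simulated for this comparison over 7469 genes, 35 of 100 genes changed 2-fold and 88 of 100 changed 4-fold were recovered, and 3 unchanged genes were called. DESeq2 1.42.0 and HTODemux of Seurat 5.3.0 were alternatives. The genes named are the 12 largest rises and 12 largest falls with 1 direction in every mouse, antibody genes left out here and from the lists, plus members of each list. Genes named from outside that rule were chosen after their values were seen. The members and lists were chosen with earlier results of these data known. Coordinates come from GENCODE on GRCm38. Some genes are not reported here.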

Additional observations from a re-analysis of the deposited data

Results flagged for a closer look

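The IGHV5 family made up 29.4% of the IgG barcodes of LDHA-sufficient mouse 2, far from the other mice. The 5 barcodes behind it are those of clone 879, which are members of 1 clone and not separate choices of the family. Chance sets a mouse apart in this way in about 1 of 20 groups, and 24 groups were examined.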

How the results depend on the processing

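The mouse block rests on classes from the same animals. Without the replicate block, V identity (-1.60) and the share under 99% (46.9) passed the threshold, and 2 V families did, IGHV6 and IGHV10. For these 2 families the IgG share was 0 in every mouse, which fixed that outcome. Genes past the threshold numbered 749 without the block, 139 with DESeq2, 395 with HTODemux, 72 with IgM or IgD cells sampled down, 32 with them matched on GC B-like share and 330 with at least 3 cells per mouse and class. Leaving out LDHA-deficient mouse 2 or LDHA-sufficient mouse 1, 2 or 3 from the last gave 385, 133, 174 and 437. Fewer cells or genes enter several of these, and the cause was otherwise not tested. Junction length reversed under HTODemux (0.310). With matched cells Top2a (-0.067), Gapdh (-0.084) and Ldha (-0.49) reversed, as did Ldha with contigs of at least 5 UMIs (-0.014), S100a10 without LDHA-sufficient mouse 2 (0.019), and Batf (0.070) and Bcl6 (-0.020) without LDHA-sufficient mouse 1. Leaving out each mouse gave ranges of -6.92 to -3.86 for the IgG share, 0 to 0 for subclasses and V families, 1.54 to 2.63 for V identity between genotypes, -2.01 to -1.04 for V identity between classes, 40 to 58.9 for the share under 99%, 37.6 to 55.4 for the GC B-like share, 3.46 to 12.8 for clones and -4.04 to -0.0556 for junction length. The settings with 3 cells, matched cells, mice with 3 or more IgG barcodes, and IgG, IgM and IgD as the whole were chosen after seeing the data. The gene fit at 5 cells could not be repeated without a mouse, and fits within GC B-like cells, outside them, between genotypes and for their interaction, with their alternatives, were not run, as too few mice had enough cells.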
